A study of Mus musculus with 2 samples.

Results

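The 54 genes described here encode the ligands, receptors, Smad proteins and target genes of the bone morphogenetic protein (BMP), transforming growth factor beta (TGF-beta) and Nodal pathways. They were chosen by gene symbol for their known place in these pathways, with earlier results of these data known. All 54 were found among the 26061 symbols of the expression table. The cells were PS10, a female line of extraembryonic endoderm stem (XEN) cells of ICR strain, stem cells of the primitive endoderm, the blastocyst layer that gives rise to yolk sac endoderm. The Gata6-AS LNA group received a locked nucleic acid against Gata6-AS, the noncoding RNA beside the endoderm factor gene Gata6, and the control LNA group received a control locked nucleic acid, both with a lipid reagent; the sample titles call both reagents siRNA. Each group is 1 library of this 1 line, so no difference below has a replicate check, none was tested, and each compares these libraries and not the treatments.

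The Gata6-AS LNA library was estimated at 122945274 reads and the control LNA library at 103562431, read from the steps in the deposited RPKM values (reads per kilobase of gene, scaled to 1000000 reads). Gata6-AS itself is listed as 1010001N08Rik. It stood at 5.83 RPKM in the Gata6-AS LNA library and 10.1 RPKM in the control LNA library, or 57.8% of control. Gata6 was at 55.7 RPKM against 81.9 RPKM in control, or 68.0%. The 2 genes overlap on chromosome 18: Gata6-AS reaches 11052565 on the minus strand and Gata6 starts at 11052508 on the plus strand. Whether strand was used in counting is not given. The Gata6-AS level and ratio may thus include Gata6 reads, and how far the targeted RNA was lowered is not settled. The labelled cell type was checked on its markers, and all 8 XEN and primitive endoderm markers were above 1 RPKM. Their sum was 2237 RPKM in the Gata6-AS LNA library and 2897 RPKM in the control LNA library. Sparc alone made up 1689 RPKM and 2104 RPKM of these sums. The median difference of the 8 was -0.39 on the log2(RPKM + 1) scale. Of the 8, 6 lay below 0 and 2, Dab2 (140% of control) and Foxa2 (102%), above. Of 5 pluripotent epiblast markers, Nanog was measured (5.07 RPKM against 4.61 RPKM in control) and Pou5f1 was at 0.0541 RPKM against 0.0556 RPKM in control, and Sox2 and Esrrb were at 0. The 5 trophoblast markers summed to 1.78 RPKM in the Gata6-AS LNA library and 1.09 RPKM in the control LNA library, with Hand1 at 0, and the 6 fibroblast feeder markers summed to 0.0150 RPKM in the Gata6-AS LNA library and 0.00541 RPKM in the control LNA library, with Thy1, Twist1 and Lum at 0. The part of the endoderm marker differences and of the trophoblast sum in the values below was not tested. In such bulk RNA, fewer cells that express a gene and less of its RNA per cell cannot be told apart.

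Ligands of this superfamily are secreted dimers that bring together type II and type I receptor kinases. BMP receptors phosphorylate Smad1, Smad5 and Smad9, while activin, Nodal and TGF-beta receptors phosphorylate Smad2 and Smad3, and both kinds of Smad enter the nucleus with Smad4. The Id genes and the inhibitory Smad genes are classic direct targets of the BMP branch, and in the early mouse embryo BMP and Nodal signals pass between the extraembryonic tissues and the epiblast.

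Promoter windows are shown for targets of the BMP branch. Id3, Smad6, Id1 and Id2 belong to that branch, with ratios of 3.43, 2.17, 1.96 and 1.18 to control. So do Msx2 (1.18), Msx1 (1.10), Bambi (1.01), Smad7 (0.754) and Id4 (0.379, near the limit of detection). Of 6 genes looked up (Id1, Id2, Id3, Id4, Smad6 and Bmp2), 4 had a window in the RefSeq table of assembly GRCm38.p6, each running from 250 bases before to 50 bases after the start of the gene. Id1 and Bmp2 had none. The Id4 window, chr13:48260866-48261165 on the plus strand, was searched but is not printed. Capitals mark GGNGCC, the core of the GC-rich element bound by Smad1 and Smad5, and CAGAC, the Smad box, searched on both strands. The printed windows are chr4:136143572-136143871 on the plus strand for Id3, chr9:64022010-64022309 on the minus strand for Smad6, and chr12:25096043-25096342 on the minus strand for Id2. Each is written 5′ to 3′ in the direction of transcription.
Id3: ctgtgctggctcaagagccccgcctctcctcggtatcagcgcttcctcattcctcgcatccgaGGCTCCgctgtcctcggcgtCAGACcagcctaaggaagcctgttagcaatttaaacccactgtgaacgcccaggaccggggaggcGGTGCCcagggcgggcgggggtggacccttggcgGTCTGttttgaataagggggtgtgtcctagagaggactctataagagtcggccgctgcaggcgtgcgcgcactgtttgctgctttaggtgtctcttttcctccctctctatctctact
Smad6: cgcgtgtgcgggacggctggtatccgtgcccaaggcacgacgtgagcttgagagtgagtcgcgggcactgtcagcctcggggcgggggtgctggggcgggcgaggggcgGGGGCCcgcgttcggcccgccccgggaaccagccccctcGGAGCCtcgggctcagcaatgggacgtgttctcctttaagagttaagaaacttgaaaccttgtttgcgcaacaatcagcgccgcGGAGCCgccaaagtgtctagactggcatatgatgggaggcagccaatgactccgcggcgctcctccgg
Id2: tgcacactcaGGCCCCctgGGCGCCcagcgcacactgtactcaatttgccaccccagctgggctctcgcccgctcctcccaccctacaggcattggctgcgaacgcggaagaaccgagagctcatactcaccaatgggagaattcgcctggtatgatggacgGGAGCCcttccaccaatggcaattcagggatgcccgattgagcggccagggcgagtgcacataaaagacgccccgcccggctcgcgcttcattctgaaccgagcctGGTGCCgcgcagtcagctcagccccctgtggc
GGNGCC occurred at 2 places in the Id3 window, at 3 in the Smad6 window, at 4 in the Id2 window and at 3 in the Id4 window. CAGAC occurred at 2 places in the Id3 window and was not found in the other windows, and no GGNGCC match overlapped a CAGAC match. GGNGCC was present in 55.4% and CAGAC in 49.6% of all 32851 promoter windows of this length, so these letters do not set the windows apart, and a match is a description of letters and not a binding site.

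Among the 54 members, 32 reached 1 RPKM in the mean of the 2 libraries and are called measured. Bmp2 was past a 2-fold size rule on the lower side in the Gata6-AS LNA library and Id3 on the higher side, on the difference of log2(RPKM + 1), Gata6-AS LNA minus control LNA. Each is 1 of 32 members, where 0.451% of all 10854 measured genes were past the rule on the lower side and 0.332% on the higher side. At a rule of 1.5-fold, Tgfbr2 joined Bmp2 on the lower side and Id1 joined Id3 on the higher side, against 1.94% and 3.43% of all measured genes. The median difference of the 32 members was -0.15, with 20 below 0 and 12 above, whereas the median of all measured genes was 0.05 and 58.0% of them lay above 0. By tier, the medians were -0.23 for 6 ligands, 0.15 for 2 genes of ligand processing and storage, -0.43 for 9 receptors, -0.05 for 6 Smads and 0.13 for 9 targets and modulators. An interval of each ratio was computed from the smallest read numbers that fit both values at 1 gene length, which ran from 269 to 14676 reads for the measured members. It is an exact (Clopper-Pearson) 95% interval that covers counting error only, not variation between cultures. Where the true read numbers are larger than the smallest that fit, the interval is wider than the counting error. By this interval, 19 measured members lay below the control level, 9 lay above it, and 4 held it. Among the 10851 measured genes with such an interval, 31.4% lay below, 44.9% above and 76.2% on either side, so at this depth leaving out the control level sets no gene apart.

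**Figure D1:**
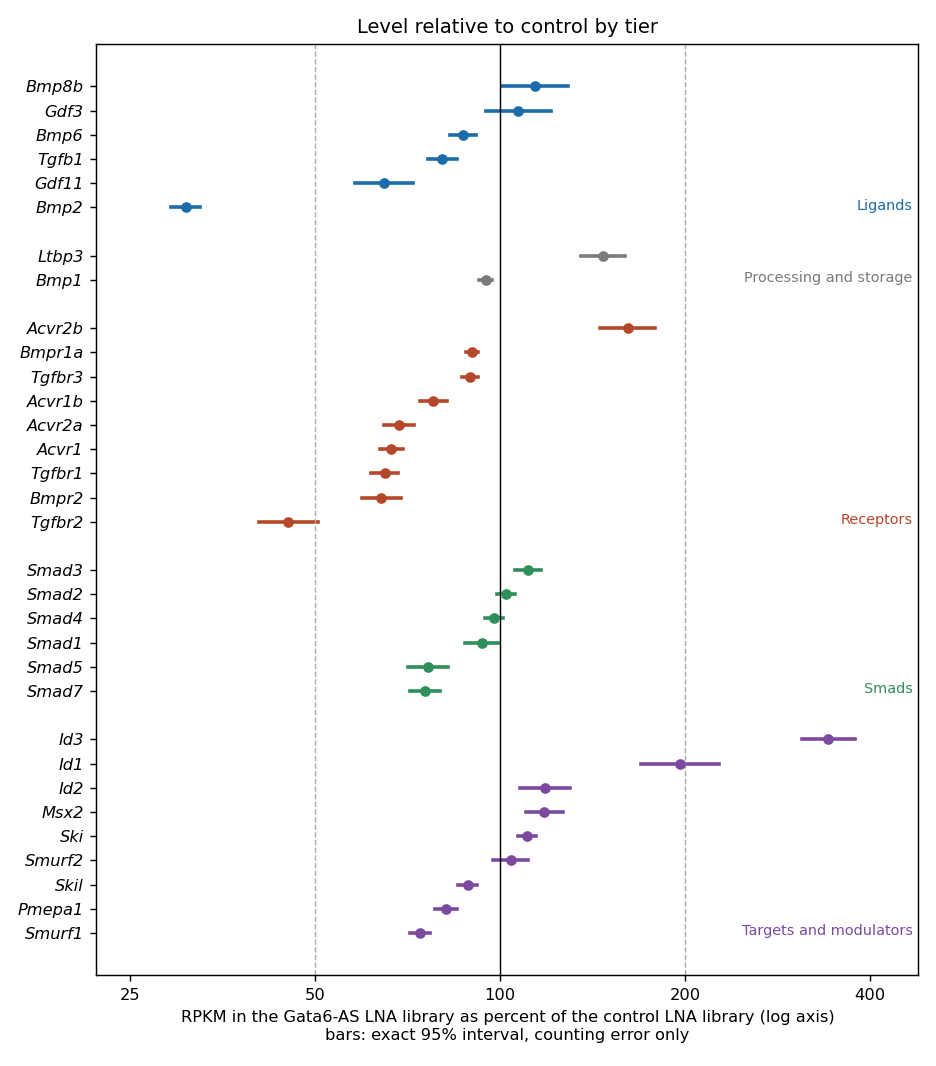
RPKM in the Gata6-AS LNA library as a percent of the control LNA library (log axis) for the 32 measured members, by tier; points are the ratio of 1 library to 1 library and bars the exact 95% interval, counting error only, with dashed lines at 50% and 200%. Bmp2 (30.7%) and Tgfbr2 (45.2%) lie left of the lower dashed line, Id3 (343%) lies right of the upper one, and all receptors but Acvr2b lie left of 100%.

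Of the 15 ligands and growth factors, 6 were measured, and Bmp2 had the most negative difference. Bmp2, a ligand secreted by the extraembryonic endoderm of the mouse embryo, lies on chromosome 2 from 133377895 to 133388621 on the plus strand in the mm9 coordinates of the table. It stood at 4.13 RPKM in the Gata6-AS LNA library and at 13.4 RPKM in the control LNA library, or 30.7% of control (29.1% to 32.4%, with no fewer than 1805 and 4946 reads). Its log2 difference of -1.49 placed it at percentile 0.101 of all measured genes. In the authors' deposited table of 2099 selected genes, its log2 difference was -1.76 (p = 1.92e-07); the sources used here give neither the test behind that p nor any adjustment.

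The other measured ligands differed less. Tgfb1, the broadly expressed TGF-beta ligand, was at 8.16 RPKM in the Gata6-AS LNA library and 10.1 RPKM in the control LNA library, or 80.4% of control (76.2% to 84.9%). Bmp6, a BMP of the Bmp5 to Bmp8 subgroup, was at 7.27 RPKM against 8.35 RPKM in control, or 87.0% (82.8% to 91.5%). Gdf11, an activin-like ligand, was at 1.17 RPKM in the Gata6-AS LNA library and 1.81 RPKM in the control LNA library, or 64.7% (58.0% to 72.1%), and the authors' deposited table lists it as lower (log2 difference -0.75, p = 0.0541). All 3 of these intervals lie below the control level. Gdf3, a Nodal-related ligand, was at 2.29 RPKM against 2.14 RPKM in control, with an interval that holds the control level (94.8% to 121%), and Bmp8b was at 1.26 RPKM against 1.11 RPKM in control.

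With Bmp2 lower, the make-up of the BMP ligands differed between the libraries. The 6 BMP ligand genes summed to 13.4 RPKM in the Gata6-AS LNA library and 23.4 RPKM in the control LNA library, or 57.2% of control. Bmp2 was 30.9% of that sum in the Gata6-AS LNA library and 57.4% in the control LNA library, while Bmp6 was 54.3% in the Gata6-AS LNA library and 35.7% in the control LNA library. Bmp6 thus held the first place in the Gata6-AS LNA library, and Bmp2 in the control LNA library. Over 236 bases Bmp6 overlaps Txndc5 on the opposite strand, which was at 102 RPKM against 100 RPKM in control. Whether strand was used in counting is not given, so the Bmp6 level and the sum, shares and order above may include Txndc5 reads. Bmp4, the BMP of the extraembryonic ectoderm in the mouse, was under the filter at 0.720 RPKM against 0.521 RPKM in control (138%, 110% to 175%).

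Nodal, Bmp5 and the activin subunit genes Inhba and Inhbb were listed at 0 in both libraries. Bmp7 rested on at least 1 read in the Gata6-AS LNA library and was listed at 0 in the control LNA library. A count of 0 allows up to 3 reads, which over a kilobase is 0.0244 RPKM in the Gata6-AS LNA library and 0.0290 RPKM in the control LNA library. Inha, the inhibin subunit, was near the filter at 0.987 RPKM against 0.851 RPKM in control, and Tgfb2 and Tgfb3 lay between 0.0974 and 0.272 RPKM in both libraries.

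In the tier of ligand processing, storage and extracellular inhibitors, Bmp1 and Ltbp3 were measured. Bmp1, which despite its name is a metalloprotease that trims procollagens and the BMP antagonist chordin, was the member with the highest level in both libraries, at 26.5 RPKM in the Gata6-AS LNA library and 28.0 RPKM in the control LNA library (94.8%, 92.5% to 97.1%). Ltbp3, which anchors latent TGF-beta in the matrix, was at 2.51 RPKM in the Gata6-AS LNA library and 1.71 RPKM in the control LNA library, or 1.47-fold (1.36 to 1.60). Ltbp1 was at 0.745 RPKM against 0.825 RPKM in control. Ltbp2 and the Nodal inhibitors Lefty1 and Lefty2, themselves Nodal targets in the mouse embryo, rested on at least 1 to 4 reads in each library, too few to compare.

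**Figure D2:**
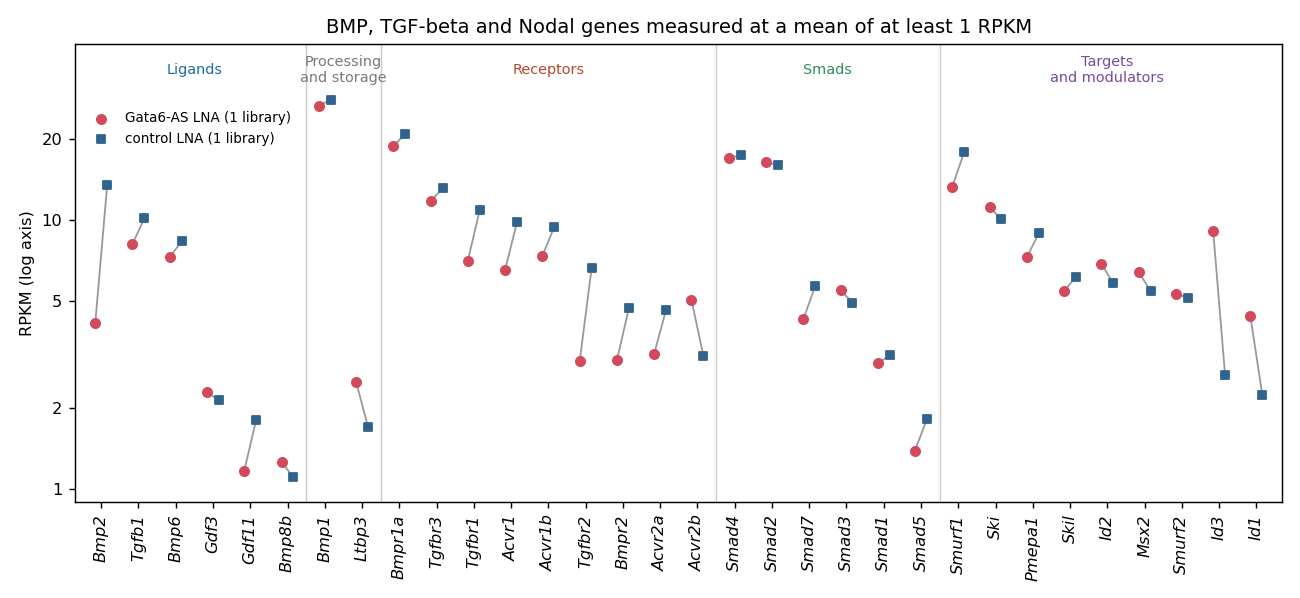
RPKM (log axis) of the 32 measured members in the Gata6-AS LNA library (circles) and the control LNA library (squares), 1 library each, ordered within each tier by the control level. The long downward gaps from control are those of Bmp2 and Tgfbr2, and Id3, Id1 and Acvr2b stand higher in the Gata6-AS LNA library.

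Receptor genes were lower in the Gata6-AS LNA library with a single exception. Of 12 receptor and co-receptor genes, 9 were measured, 8 below 0 and 1, Acvr2b, above, where 58.0% of all measured genes lay above 0. Each of the 9 intervals left out the control level, as did those of 76.2% of all measured genes with an interval. None passed the 2-fold rule. The type I and type II receptor genes together summed to 54.0 RPKM in the Gata6-AS LNA library and 70.2 RPKM in the control LNA library, or 77.0% of control.

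Tgfbr2, the type II receptor that binds TGF-beta, had the most negative difference of the receptors. It lies on chromosome 9 from 115993415 to 116084383 on the minus strand in mm9. Its level was 2.99 RPKM in the Gata6-AS LNA library and 6.61 RPKM in the control LNA library, or 45.2% of control (40.4% to 50.4%, with no fewer than 495 and 923 reads). The ratio itself is thus beyond 2-fold, but the added RPKM in the measure reduced the log2 difference to -0.93, and with 0.5 or 0.1 RPKM added in place of 1 the gene passed the rule. Its partner Tgfbr1, the type I receptor for TGF-beta, was at 7.07 RPKM against 10.9 RPKM in control, or 64.8% (61.7% to 68.1%, log2 difference -0.56).

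The measured BMP and activin receptor genes below control ranged from 64.1% to 90.01% of it. Bmpr2, the BMP type II receptor, was at 3.01 RPKM in the Gata6-AS LNA library and 4.70 RPKM in the control LNA library, or 64.1% (59.6% to 68.9%, log2 difference -0.51). Acvr1, a type I receptor for BMPs, was at 6.54 RPKM in the Gata6-AS LNA library and 9.84 RPKM in the control LNA library, or 66.5% (63.7% to 69.3%, log2 difference -0.52). Acvr2a, a type II receptor shared by activins and BMPs, was at 3.18 RPKM against 4.64 RPKM in control, or 68.6% (64.8% to 72.5%). These 3 genes and Tgfbr1 had overlapping intervals between 59.6% and 72.5% of control. Acvr1b, the type I receptor for activin and Nodal, was at 7.35 RPKM against 9.45 RPKM in control, or 77.9%. Bmpr1a, the main BMP type I receptor of the early embryo and the receptor gene with the highest level, was at 18.8 RPKM in the Gata6-AS LNA library and 20.9 RPKM in the control LNA library, or 90.01% (87.9% to 92.1%), and Tgfbr3, the co-receptor betaglycan, was at 11.7 RPKM against 13.1 RPKM in control, or 89.4%.

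Acvr2b stood on the other side. This type II receptor for activin, Nodal and Gdf11, on the plus strand of chromosome 9 from 119311562 to 119342619 in mm9, was at 5.06 RPKM in the Gata6-AS LNA library and 3.13 RPKM in the control LNA library, or 1.61-fold (1.46 to 1.79, from at least 1090 and 569 reads), a log2 difference of 0.55. The order of the 4 type II receptors therefore differed: Acvr2b had the first place in the Gata6-AS LNA library, with 35.5% of their sum, and the last in the control LNA library, with 16.4%, while Tgfbr2 had the last place in the Gata6-AS LNA library, with 21.0%, and the first in the control LNA library, with 34.6%. The remaining receptor genes carried almost no reads: Bmpr1b, a BMP type I receptor gene, and the Nodal co-receptor gene Tdgf1 were listed at 0 in both libraries, and Eng, the endothelial co-receptor endoglin, was at 0.0567 RPKM against 0.0274 RPKM in control.

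The authors' deposited table lists 5 of the receptor genes, all as lower: Tgfbr2 (log2 difference -1.20, p = 2.17e-04), Bmpr2 (-0.75, p = 0.0199), Acvr1 (-0.64, p = 0.0229), Tgfbr1 (-0.65, p = 0.0230) and Acvr2a (-0.62, p = 0.0355). Acvr2b is not among the genes of the authors' deposited table. Of the 32 measured members, 7 are listed as lower and 2 as higher in the authors' deposited table, where 5.69% of all measured genes are listed as lower and 6.23% as higher. Both tables come from the same 2 libraries, so a listing is no second measurement.

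**Figure D3:**
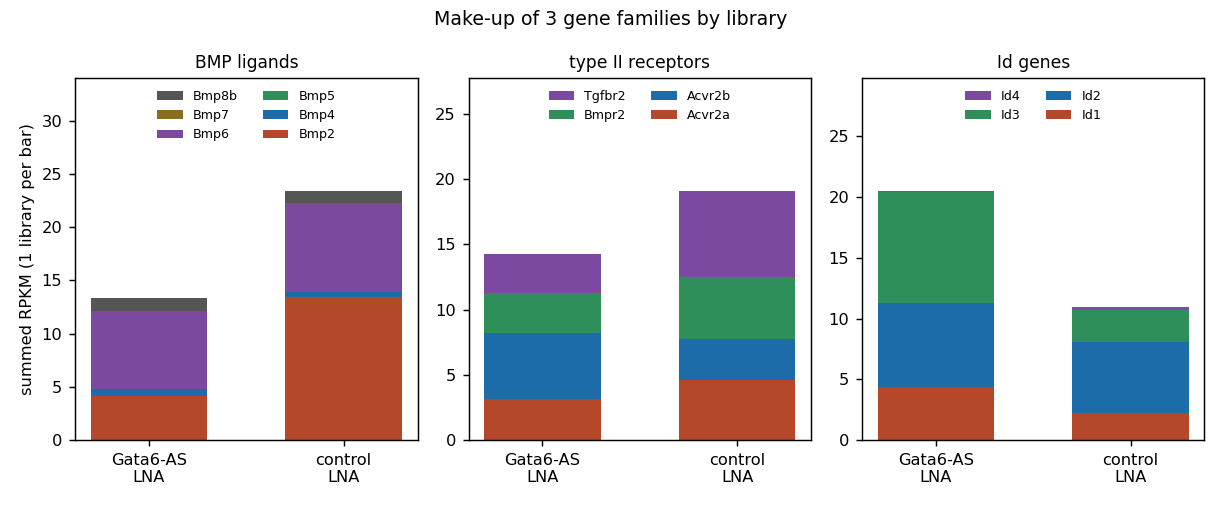
Summed RPKM of the BMP ligand genes, the type II receptor genes and the Id genes in the Gata6-AS LNA library (left bar) and the control LNA library (right bar), stacked by gene, 1 library per bar. The BMP ligand and type II receptor sums are lower and the Id sum is higher in the Gata6-AS LNA library.

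The 6 measured Smad genes had a median difference of -0.05, against -0.43 for the 9 measured receptor genes. Smad4, the common partner of both branches, was at 17.0 RPKM in the Gata6-AS LNA library and 17.4 RPKM in the control LNA library (97.6%, 94.5% to 101%), and Smad2 was at 16.4 RPKM against 16.0 RPKM in control (102%, 98.7% to 106%). Both intervals hold the control level. Smad3 was at 5.49 RPKM against 4.94 RPKM in control, or 111% (106% to 117%). On the BMP side, Smad1 was at 2.94 RPKM against 3.14 RPKM in control (93.4%), Smad5 was at 1.39 RPKM against 1.83 RPKM in control (76.3%, 70.7% to 82.4%), and Smad9 was at 0.0379 RPKM against 0.0198 RPKM in control. No Smad gene that was measured passed the 1.5-fold rule.

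The inhibitory Smad genes, whose products block receptors and are made in response to signalling, went opposite ways. Smad7, which acts on both branches, was at 4.27 RPKM in the Gata6-AS LNA library and 5.67 RPKM in the control LNA library, or 75.4% (71.3% to 79.8%). Smad6, which acts mainly on BMP receptors, was at 1.32 RPKM in the Gata6-AS LNA library and 0.609 RPKM in the control LNA library, or 2.17-fold (1.84 to 2.57, from at least 510 and 198 reads). With a mean of 0.966 RPKM, Smad6 (chromosome 9, 63800953 to 63869866, minus strand, mm9) is the member just under the filter, and Bmp8b, with a mean of 1.18 RPKM, the one just above it. The authors' deposited table lists Smad6 as higher (log2 difference 0.99, p = 0.0143).

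Among the 13 targets and modulators, 9 were measured, 6 above 0 and 3 below, where 58.0% of all measured genes lay above 0. Id3, an inhibitor of basic helix-loop-helix factors that BMP signals induce, lies on the plus strand of chromosome 4 from 135699412 to 135701670 in mm9. It was at 9.12 RPKM in the Gata6-AS LNA library and 2.66 RPKM in the control LNA library, or 3.43-fold (3.10 to 3.79, from at least 2009 and 494 reads). Its log2 difference of 1.47 was the fourth most positive among all measured genes, and in the authors' deposited table it was 1.68 (p = 7.34e-05). Id1, a close relative (chromosome 2, 152561987 to 152563146, plus strand, mm9), was at 4.39 RPKM in the Gata6-AS LNA library and 2.24 RPKM in the control LNA library, or 1.96-fold (1.70 to 2.27, from at least 626 and 269 reads), a log2 difference of 0.73, and in the authors' deposited table its log2 difference was 0.85 (p = 0.0215).

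The other Id genes did not follow with like ratios. Id2 was at 6.88 RPKM in the Gata6-AS LNA library and 5.82 RPKM in the control LNA library, or 1.18-fold (1.08 to 1.30), an interval that lies below those of Id1 and Id3. Id4 was near the limit of detection, at 0.0882 RPKM against 0.233 RPKM in control (37.9%, 15.2% to 87.1%, from at least 9 and 20 reads), and is listed as lower in the authors' deposited table (log2 difference -1.53, p = 0.0100). The 4 Id genes summed to 20.5 RPKM in the Gata6-AS LNA library and 10.95 RPKM in the control LNA library, or 187% of control. Id3 was 44.55% of the sum in the Gata6-AS LNA library and 24.3% in the control LNA library, and Id2, first in the control LNA library with 53.1%, was second in the Gata6-AS LNA library with 33.6%.

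The other targets were nearer to control. Msx2, a homeobox gene that BMPs induce, was at 6.43 RPKM against 5.45 RPKM in control, or 118% (110% to 127%). Msx1 (0.462 RPKM against 0.419 RPKM in control) and the pseudoreceptor gene Bambi (0.902 RPKM against 0.897 RPKM in control) were under the filter, with intervals that hold the control level. Pmepa1, a TGF-beta target that damps Smad2 and Smad3, was at 7.27 RPKM against 8.91 RPKM in control, or 81.5% (78.2% to 85.0%), and Skil, a TGF-beta-induced corepressor of Smads, was at 5.45 RPKM against 6.15 RPKM in control, or 88.5% (85.5% to 91.7%). Tgfbi, a matrix gene named for its induction by TGF-beta, was listed at 0 in both libraries.

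The targets were also grouped by the signal they respond to. Of 9 genes taken as BMP-responsive (the Id and Msx genes, Smad6, Smad7 and Bambi), 5 were measured, with a median of 0.21. Of these, 4 lay above 0 and 1 below, where 58.0% of all measured genes lay above 0. The 9 genes summed to 33.9 RPKM in the Gata6-AS LNA library and 23.99 RPKM in the control LNA library. Of 7 genes taken as TGF-beta, activin or Nodal-responsive (Skil, Pmepa1, Tgfbi, Smad7, both Lefty genes and Ltbp2), 3 were measured, all below 0, with a median of -0.26, and their sum was 17.0 RPKM in the Gata6-AS LNA library and 20.8 RPKM in the control LNA library. Smad7 counts in both groups, the groups are small, and their difference was not tested. Outside the members, the TGF-beta-inducible genes Gadd45b (2.57-fold) and Ctgf (1.63-fold) were higher in the Gata6-AS LNA library, so the sign of the second group holds for its 3 measured genes and not for such targets in general.

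The modulators of the pathway inside the cell completed this tier. Smurf1, a ubiquitin ligase that turns over Smad1, Smad5 and receptors, was at 13.3 RPKM in the Gata6-AS LNA library and 17.9 RPKM in the control LNA library, or 74.1% (71.4% to 77.0%). Its relative Smurf2 was at 5.33 RPKM against 5.13 RPKM in control, with an interval that holds the control level (97.4% to 111%). Ski, a Smad corepressor, was at 11.1 RPKM against 10.1 RPKM in control, or 111% (107% to 115%).

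**Figure D4:**
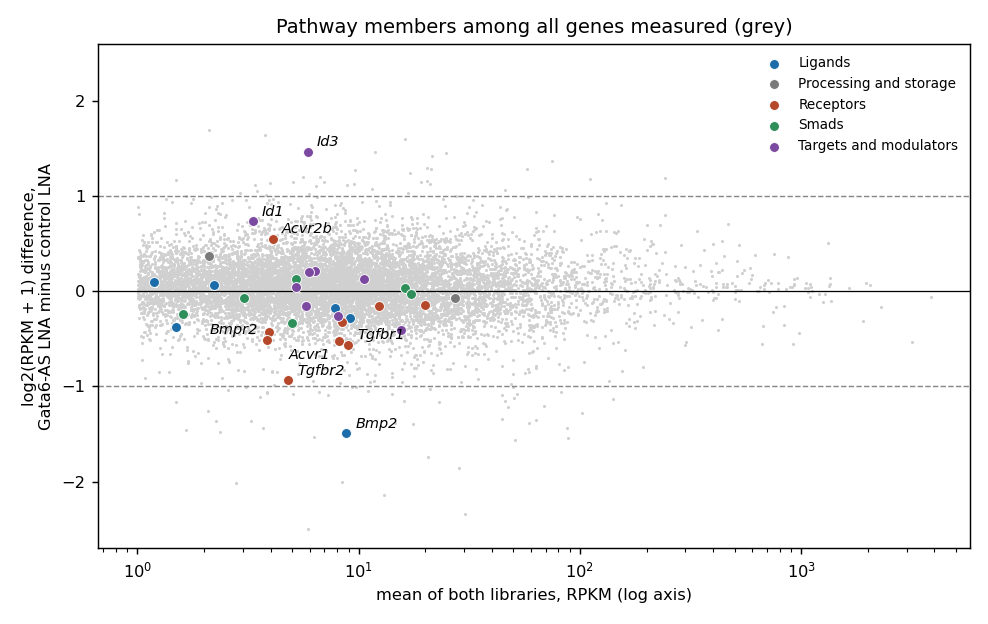
Difference of log2(RPKM + 1), Gata6-AS LNA minus control LNA, against the mean RPKM of both libraries (log axis) for all 10854 measured genes (grey) and the 32 measured members by tier; dashed lines mark the 2-fold rule and members with a difference of at least 0.5 either way are named. Id3 lies above the upper line, Bmp2 below the lower one, and Tgfbr2 just inside it.

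Other genes of the pathway, from a list of 74, were read in the same way. Of these, 37 were measured, with a median of 0.01. On the higher side 1 was past the 2-fold rule and on the lower side 3, where 0.332% and 0.451% of all measured genes were past it. The list was chosen with earlier results of these data known, so its counts are a description only. All 3 genes past the rule on the lower side are extracellular antagonists or modulators. They were Bmper, which binds BMPs, at 18.2% of control, the activin antagonist Fst at 36.5% and the BMP antagonist Nog at 48.9%. In that class 10 of 17 were measured, 7 below 0 and 3 above, where 58.0% of all measured genes lay above 0. The class summed to 52.8% of control (184 RPKM in the Gata6-AS LNA library and 348 RPKM in the control LNA library). Other antagonists were closer to control, among them Chrd at 84.2%, Fstl1 at 86.2% and Htra1 at 117%. The Chrd interval (51.2% to 139%) rests on the smallest fit, 35 reads in each library at a length of 278 bp, and may be too wide. Bmp2, Bmper, Fst and Nog were lower in the same library in which Id3, Id1 and Smad6, the last under the filter, were higher. The other genes taken as BMP-responsive were at 118% of control (Id2 and Msx2), 110% (Msx1), 101% (Bambi), 75.4% (Smad7) and 37.9% (Id4). Of these, Msx1, Bambi and Id4 were under the filter. No link between these values was tested.

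In the class of other targets, 7 of 15 were measured, 4 above 0 and 3 below, where 58.0% of all measured genes lay above 0. Gadd45b, a stress and TGF-beta-inducible gene, was at 30.5 RPKM in the Gata6-AS LNA library and 11.9 RPKM in the control LNA library, or 2.57-fold (2.37 to 2.79), and was the member of the class past the 2-fold rule. The matricellular gene Ctgf was at 248 RPKM against 152 RPKM in control (1.63-fold), and Cyr61 at 230 RPKM against 170 RPKM in control (1.35-fold). Gata2 was at 1.59 RPKM against 0.957 RPKM in control (1.66-fold). Among the 4 measured genes of the other ligands, the largest differences were those of Gdf6 (135% of control), Gdf9 (73.2%) and Gdf1 (121%). Rgmb, a BMP co-receptor, was at 109%. In the class of activation and storage, Thbs1, an activator of latent TGF-beta, was at 147%, the proprotein convertase gene Furin at 78.1% and Pcolce at 127%. Of the Smad cofactors and regulators, Ywhae was at 136%, the Smad anchor gene Zfyve9 at 70.9% and the Smad phosphatase gene Ppm1a at 79.9%.

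**Figure D5:**
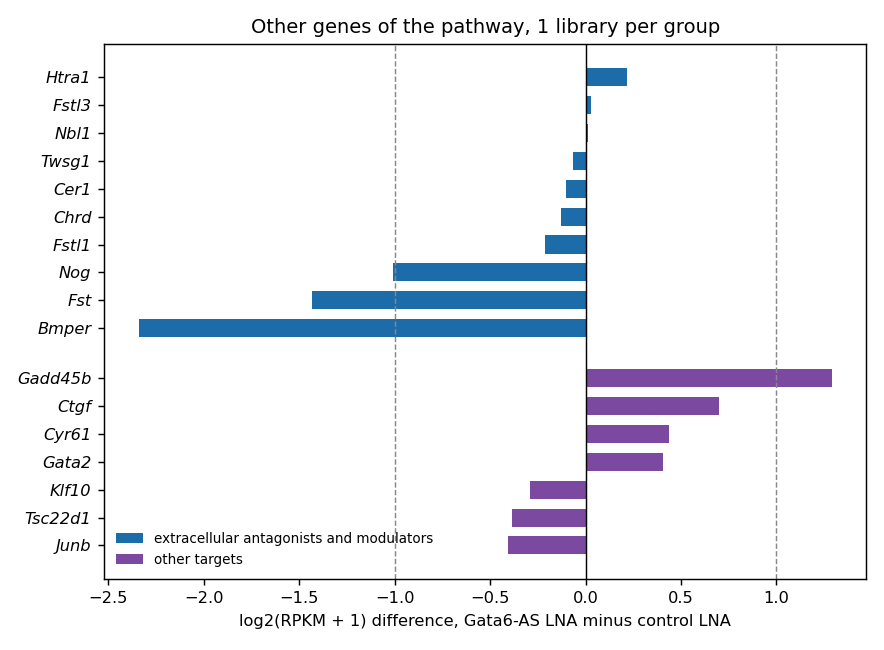
Difference of log2(RPKM + 1), Gata6-AS LNA minus control LNA, for the measured extracellular antagonists and modulators (10 genes) and other targets (7 genes); each bar compares 1 library with 1 library and dashed lines mark the 2-fold rule. Bmper, Fst and Nog lie beyond the lower line and Gadd45b beyond the upper one.

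For 4 measured members, Bmp6, Bmp8b, Acvr2a and Ltbp3, the table also holds an expressed gene on the opposite strand that overlaps them. The sources used here do not say whether strand was used in counting, so reads in those stretches cannot be assigned to either gene.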

How the data were processed

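RNA of 1 library per group was sequenced; groups follow the sample titles. The authors' deposited table gives RPKM for 26127 rows, per the file headers. TopHat and mm9 are named in the submitters' processing notes; counting tool, annotation and strand use: not given in the sources used here. The authors' other deposited table gives log2 values, their difference and a p-value for 2099 genes, up to p = 0.0750.

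The measure was the difference of log2(RPKM + 1), with 1 row per symbol (the highest mean), a mean of at least 1 RPKM and a size rule of 2-fold. With 1 library per group no test was made. Depth was found from genes with a span under 3000 bp, for which RPKM times length was a whole number of steps (882 of 2211 in the Gata6-AS LNA library, 824 of 2094 in the control LNA library). For each gene, the shortest length up to 30000 bp giving whole reads in both libraries (relative tolerance 1.5e-07 plus 2e-05 reads) gave the least reads, and from them the exact 95% interval (scipy 1.17.1). These steps were tested on simulated data. Members and lists were chosen with earlier results of these data known. Named in full were members past the size rule or with a difference of at least 0.5, and the 2 highest of each tier; other members are given more briefly. Receptor, ligand and Id gene subsets were formed after values were seen. Promoter sequences are from RefSeq, GRCm38.p6. The alternatives were other pseudocounts, filters, scalings and size rules. From the list of other pathway genes, 1 gene is not reported here and is left out of its counts and sums.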

Additional observations from a re-analysis of the deposited data

How the results depend on the processing

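No paired analysis was possible because each group has 1 library, and none could be left out. Id3 was the member at least 2-fold higher, and Bmp2 at least 2-fold lower, in every setting run; the counts were otherwise 2 higher (Id1 added) at a 1.5-fold rule and 2 lower (Tgfbr2 added) at that rule, with a pseudocount of 0.1 or 0.5 RPKM and with each library scaled to 1000000 summed RPKM. Pseudocounts and filters cannot turn a sign; of 54 values of 18 named members under other scalings, it turned in 1, Smad2 (-0.02 with the median of all genes set to 0). The median of all measured members moved from -0.15 to 0 without a filter and -0.20 with all genes centred. The receptor median moved from -0.43 to -0.53 with a pseudocount of 0.1 RPKM, -0.24 without a filter, -0.32 above a mean of 5 RPKM and -0.54 with summed scaling. Targets and modulators moved from 0.13 to 0.0433 without a filter, 0.0858 when centred and 0.0839 with quantile normalization. The ligand median was 0 without a filter, and the Smad median 0.0297 above 5 RPKM. Processing and storage, with 2 measured genes, moved from 0.15 to 0.23 at 0.1 RPKM, -0.01 without a filter (-0.0105) and -0.07 above 5 RPKM (-0.0745). Without a filter, members at or near 0 enter the medians. Smad6, at 0.53 on the main scale, was at 1.003 with a pseudocount of 0.1 RPKM. Depth limits the members whose least read numbers lie under 30 (Id4, Eng, Smad9, both Lefty genes, Ltbp2, Bmp7 and Tgfb2).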
